A study of Mus musculus with 24 samples.

Results

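The cholesterol and fatty acid synthesis module comprised 32 genes, chosen by symbol from the pathways and not by a threshold on values in these libraries. It held 16 enzymes of sterol synthesis, 6 regulators of sterol balance and 10 enzymes of fatty acid synthesis, elongation and desaturation. All 32 were listed in each of the deposited tables of 21441 genes. Expression is given as FPKM, fragments scaled to transcript length and to a factor of each library, which sets levels on a scale per length. A gene entered the tests where at least 3 libraries of a region reached 1 FPKM, which 30 of the 32 did in the duodenum (not Fdft1 and Acacb), 31 in the ileum (not Fdft1) and 32 in the colon.

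The libraries hold poly(A) RNA of 3 gut regions, duodenum, ileum and colon, from C57BL6J wild type mice. Treated mice (3xD) received 3 injections of 1,25D3 (calcitriol, the hormone form of vitamin D) at 1 ng per g body weight, 48, 24 and 6 h before they were killed. Vitamin D-deficient mice (minusD) have "none" as their treatment in the labels. Ages of 10 to 14 in treated and 10 to 13 in deficient mice carry no unit, and by the labels 2 of 4 treated and 1 of 4 deficient mice per region were female. The labels' protocol names whole tissue, villus and crypt epithelium and organoids without saying which was used here. Cell types were not separated in these bulk samples, so fewer cells of a type and less RNA per cell cannot be told apart. Nothing in the labels says whether samples came from separate animals, and p-values then measure only the spread between these samples. Of the 23 libraries, duodenum and colon each had 4 treated and 4 deficient ones, and ileum 4 treated and 3 deficient ones.

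Column names fall into 2 schemes that nearly coincide with treatment, serial numbers (treated 1 and deficient 1, 2 and 3) and 4-digit numbers (treated 3xD5711, 3xD5720 and 3xD5734 and deficient minusD5718, absent from the ileal table). Xist exceeded Ddx3y, both in duodenum and colon, for 3 of 4 4-digit libraries and 0 of 4 serial ones, so the scheme nearly coincides with sex too. Recovered reads per duodenal library ranged from 22323145 to 44505583, per ileal library from 19422707 to 43191604, and per colonic library from 14459914 to 29418797. The colon's serial libraries (26761715 to 29418797) were all deeper than its 4-digit ones (14459914 to 22808420). The libraries of treated 3xD5720 stood apart: of all genes tested, 17.2% were highest and 17.4% lowest in its duodenal library, 27.1% and 27.1% in its ileal and 17.8% and 17.2% in its colonic one, where equal shares would be 12.5%, 14.3% and 12.5%. Its reads per FPKM, relative to treated 1, were the lowest in the duodenum (0.685, against 0.691 in minusD5718), ileum (0.439) and colon (0.545). In the ileum it had 37077553 recovered reads against 36534009 in treated 1, so the library factor of FPKM did not follow recovered reads. Colon treated 1 stood apart by transcript length, with a median log2 deviation of the longest tercile of genes minus that of the shortest of -0.52, against -0.01 to 0.13 for the same difference in the other 7 colonic libraries. The 9 epithelial markers, none at 0 throughout, had sums of 8377 to 13195 FPKM (duodenum), 5998 to 24079 (ileum) and 5908 to 10682 (colon), lowest in 3xD5720 in each.

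Cholesterol and fatty acids are both built from cytosolic acetyl-CoA. ATP citrate lyase (Acly) supplies it, the mevalonate pathway and the squalene and lanosterol steps turn it into cholesterol, and acetyl-CoA carboxylase and fatty acid synthase turn it into palmitate, which elongases and desaturases modify. Both branches are driven by the SREBP transcription factors (genes Srebf1 and Srebf2), which SCAP escorts out of the endoplasmic reticulum when sterols are low and INSIG proteins hold back when sterols are high. The intestine makes cholesterol of its own beside what it absorbs. The pathway meets vitamin D at 7-dehydrocholesterol, the substrate of Dhcr7, from which skin makes vitamin D under ultraviolet light, and Insig2 has been described as a target gene of the vitamin D receptor in cultured fat cells.

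RefSeq promoters (GRCm38.p6 table) were matched for 25 of the 32 genes, and the 250 bases before the start were searched on both strands. The motif TCACNCCAC of the sterol regulatory element, with N for any base, was found in 1 of the 25, Hmgcs1, and in 1.22% of all 27025 genes with a promoter. CCAAT, the letters that the SREBP partner NF-Y binds, was found in 19 of the 25 and in 37.5% of all genes. The E-box CACGTG was found in 5 of the 25 (Dhcr7, Elovl5, Hsd17b7, Insig1 and Scap) and in 6.86% of all genes. The vitamin D receptor motif, a direct repeat of AGGTCA or of GGTTCA with a gap of 3 bases, was found in 0 of the 25 and in 0.0074% of all genes for either repeat. By single promoters, which number 32851, the shares were 1.05% for the sterol element, 33.8% for CCAAT and 6.02% for the E-box. A match is a stretch of letters, and no match says only that these letters are not in this window.

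4 promoters are shown, those of Fasn and Srebf2, whose treated and deficient libraries did not overlap in the colon, of Hmgcs1, with the smallest p among the 32 genes in the duodenum and the sterol element, and of Insig1, the feedback gene with an E-box. Capitals mark the motif matches, each run reads 5′ to 3′ on the gene's strand, and the last base is the one before the RefSeq start. By exact match in NCBIM37, the build of the files, they lie at chr11:120685862-120686111 (Fasn, minus strand), chr15:81977449-81977698 (Srebf2, plus) and chr5:28397702-28397951 (Insig1, plus). The Hmgcs1 run, with no exact match in NCBIM37, is at chr13:119690101-119690350 (plus) of GRCm38.p6.
Fasn: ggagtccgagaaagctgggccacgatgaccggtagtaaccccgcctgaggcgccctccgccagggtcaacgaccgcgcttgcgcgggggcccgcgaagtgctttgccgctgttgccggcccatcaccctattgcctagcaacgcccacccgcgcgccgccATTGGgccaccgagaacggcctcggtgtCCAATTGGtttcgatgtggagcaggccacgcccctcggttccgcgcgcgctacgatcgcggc
Srebf2: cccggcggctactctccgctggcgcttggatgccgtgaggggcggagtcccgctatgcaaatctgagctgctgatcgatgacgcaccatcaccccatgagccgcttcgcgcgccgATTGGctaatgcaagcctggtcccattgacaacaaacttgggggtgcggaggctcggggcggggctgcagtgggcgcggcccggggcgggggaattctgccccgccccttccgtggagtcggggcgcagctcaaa
Hmgcs1: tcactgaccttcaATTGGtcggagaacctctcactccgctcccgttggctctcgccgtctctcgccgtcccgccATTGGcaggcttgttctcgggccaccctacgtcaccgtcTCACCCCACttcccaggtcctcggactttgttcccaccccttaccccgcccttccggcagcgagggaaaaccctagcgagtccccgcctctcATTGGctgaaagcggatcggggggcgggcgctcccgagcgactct
Insig1: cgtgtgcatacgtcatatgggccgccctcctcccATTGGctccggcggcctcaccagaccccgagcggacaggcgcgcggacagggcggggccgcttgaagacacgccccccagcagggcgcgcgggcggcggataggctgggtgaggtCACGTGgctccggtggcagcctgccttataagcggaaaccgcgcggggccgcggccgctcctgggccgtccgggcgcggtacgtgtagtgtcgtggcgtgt
In Fasn 3 CCAAT matches began at -90, -62 and -59, counted from -1 at the base before the start, and the last 2 overlap as 1 palindrome. Srebf2 held 1 at -135. In Hmgcs1 the sterol element began at -137, between CCAAT matches at -176 and -45, with a further one at -237. Insig1 held the E-box at -101 and a CCAAT match at -216. The promoters of Acaca and Scap, whose colonic groups did not overlap either, are not shown. That of Acaca held none of the motifs, and of Scap 1 promoter held an E-box at -40 and another none.

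By Cyp24a1 the hormone response was present in each region, at levels that varied widely between treated libraries. Cyp24a1, which encodes the enzyme that inactivates calcitriol, was at 64.9 to 641 FPKM in treated and 0.00846 to 0.418 FPKM in deficient duodenum, 5.34 to 543 against 0.0157 to 0.153 in the ileum, and 2.67 to 369.7 against 0.0107 to 0.0814 in the colon. By limma (two-sided, Benjamini-Hochberg adjustment over all genes of a region) it passed in the duodenum (log2 difference 7.91 ± 0.59, adjusted p = 0.0034) and not in the ileum (4.90, 0.706) or colon (6.28, 0.456). Of all genes tested, 3 of 11734 passed in the duodenum (0.0256%), 0 of 12149 in the ileum (0.0%) and 0 of 12746 in the colon (0.0%).

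In the pooled libraries sterol and fatty acid synthesis genes were mostly lower in treated than in deficient mice, and none of these differences passed the test. The majority did not hold in the 4-digit libraries alone, and in the serial libraries alone it was bare in the ileum and colon. Log2 differences, treated minus deficient on the scale of log2(FPKM + 1), were negative in 25 of 30 genes in the duodenum (median -0.22), 21 of 31 in the ileum (-0.09) and 27 of 32 in the colon (-0.18), where the medians of all genes were 0.01, 0.01 and -0.01. Among 4-digit libraries 14 of 30 were negative in the duodenum (median 0.02) and 12 of 32 in the colon (0.06), and with the naming scheme as a covariate 21 of 30, 17 of 31 and 16 of 32 in the duodenum, ileum and colon (-0.11, -0.03 and -0.01). Serial libraries alone gave 24 of 30, 17 of 31 and 17 of 32 negative in that order (-0.24, -0.03 and -0.05). Without treated 3xD5720 the medians were -0.12, -0.04 and -0.07. Called genes among the members numbered 0 of 30, 0 of 31 and 0 of 32, and the lowest adjusted p of the module was 0.499, 0.706 and 0.623. At an unadjusted p under 0.05 stood 1 gene of the 30 in the duodenum (Hmgcs1, lower), 3 of the 31 in the ileum (Pmvk and Fasn lower, Nsdhl higher) and 5 of the 32 in the colon (Srebf2, Scap, Acly, Acaca and Fasn, all lower), where all genes gave 473 higher and 630 lower, 376 and 333, and 372 and 374. Of the 30 genes tested in all 3 regions, 17 were lower in each, among them Hmgcs1, Mvk, Sqle, Srebf2, Scap, Insig1, Acly, Acaca, Fasn, Scd1, Scd2 and Fads2, and 1, Ebp, was higher in each. Of the 11234 genes of the whole table tested in all 3 regions, 20.1% were lower and 22.2% higher in each. Deviations of same-named libraries were mostly weakly correlated across regions, with medians of 0.28 (duodenum and ileum), 0.22 (duodenum and colon) and 0.28 (ileum and colon). No comparison with differently named libraries is given. Within the naming schemes 5 of the 17, Mvk, Mvd, Fdps, Sqle and Insig1, were higher in treated colon in both.

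**Figure D1:**
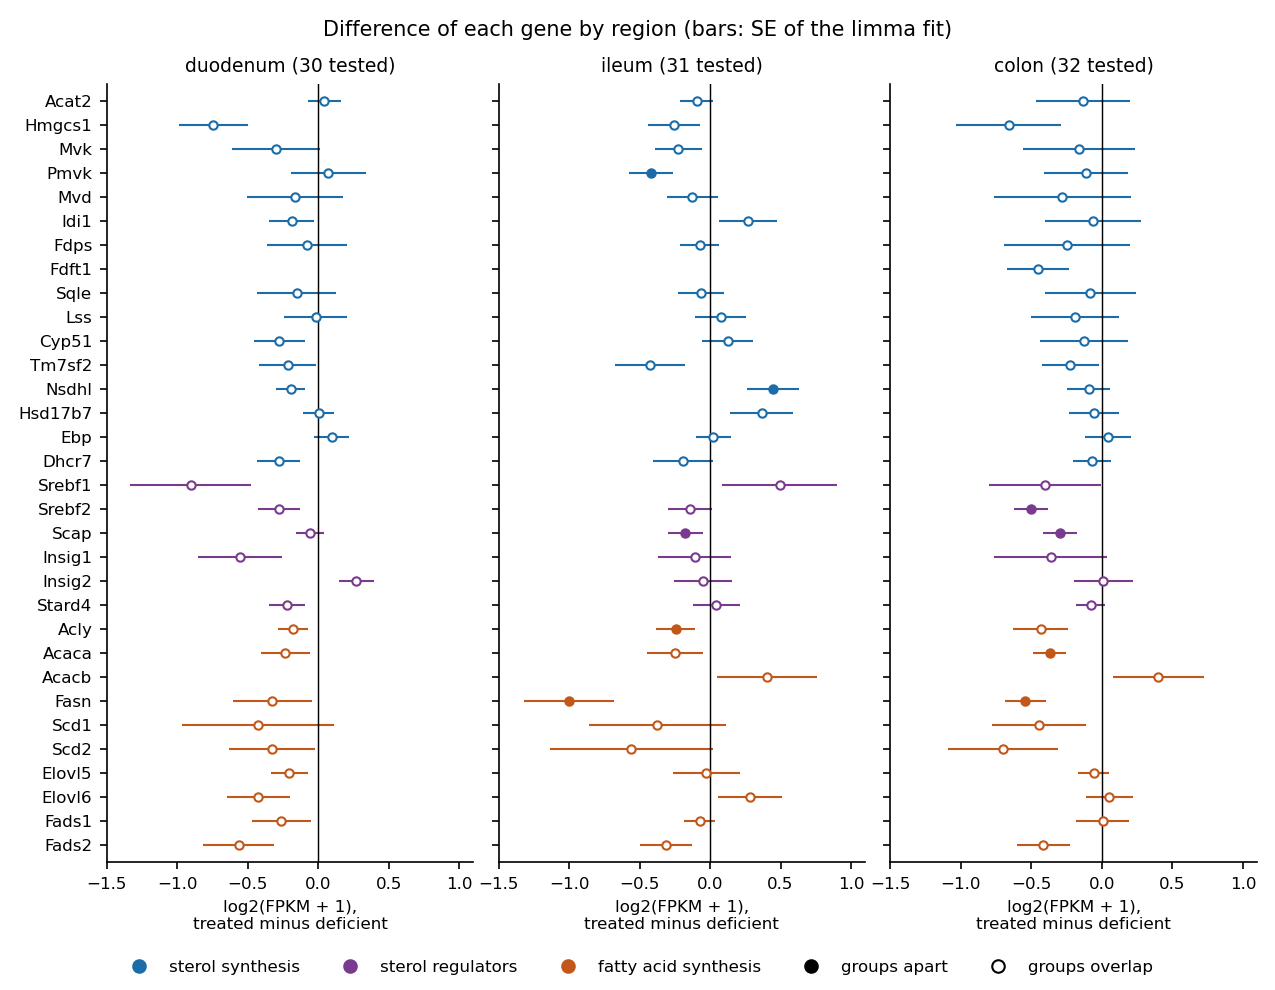
Log2(FPKM + 1) difference, treated minus deficient, of each of the 32 genes (rows) in the duodenum, ileum and colon, with the SE of the limma fit as bars and colour by role. Filled points mark genes whose treated and deficient libraries do not overlap, 0 in the duodenum, 5 in the ileum and 4 in the colon, and most points lie left of 0.

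Groups of libraries did not overlap for 0 of 30 genes in the duodenum, where 1.99% of all genes had every treated library above and 2.38% every treated library below the deficient ones. In the ileum 1 of 31, Nsdhl, had treated libraries all above (3.35% of all genes) and 4, Pmvk, Scap, Acly and Fasn, all below (3.21%). In the colon 0 of 32 were all above (2.22%) and 4, Srebf2, Scap, Acaca and Fasn, all below (2.32%). The shares of members all below were thus above the background in the ileum and colon, and at 0 under it in the duodenum.

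Fatty acid synthesis genes had medians of -0.33 in the duodenum (9 of 9 negative), -0.25 in the ileum (8 of 10) and -0.39 in the colon (7 of 10). These were the most negative of the 3 roles in the pooled libraries, but without treated 3xD5720 the regulators were lower in the duodenum (-0.22 against -0.17) and ileum (-0.05 against -0.03). Among serial libraries the sterol enzymes were lower in the duodenum (-0.26 against -0.16) and the regulators in the colon (-0.44 against -0.25). Fasn encodes fatty acid synthase, which makes palmitate. In the colon it was at 24.4, 23.6 and 21.9 FPKM in deficient 1, 2 and 3 and 19.1 in minusD5718, and at 17.6 in treated 1 and 15.7, 11.6 and 15.2 in treated 3xD5711, 3xD5720 and 3xD5734. Every treated colonic library lay below every deficient one, with means of 15.03 ± 2.52 and 22.2 ± 2.34 (SD, n = 4 and 4). The log2 difference was -0.54 ± 0.14 (SE, adjusted p = 0.707), -0.38 among serial and -0.42 among 4-digit libraries, and between -0.62 and -0.43 with any 1 library left out.

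In the ileum Fasn was at 32.8, 19.8 and 17.99 FPKM in deficient 1, 2 and 3 and at 15.6, 12.0, 5.91 and 12.2 in treated 1, 3xD5711, 3xD5720 and 3xD5734. The groups did not overlap, and the log2 difference was -1.003 ± 0.320 (adjusted p = 0.706), the largest of the module in that region, -0.74 without treated 3xD5720 and -0.51 within the serial libraries. In the duodenum Fasn was at 6.36, 10.7, 4.935 and 3.59 FPKM in deficient 1, 2, 3 and minusD5718 and at 4.62, 5.97, 3.055 and 5.01 in the treated libraries in the same order. There the groups overlapped, and the difference of -0.33 ± 0.28 (adjusted p = 0.672) was -0.51 among serial and 0.27 among 4-digit libraries.

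Acaca encodes acetyl-CoA carboxylase 1, the committed step that makes malonyl-CoA for fatty acid synthase. In the colon it was at 8.88, 8.40, 8.46 and 8.46 FPKM in deficient 1, 2, 3 and minusD5718 and at 5.525, 6.77, 5.99 and 7.37 in treated 1, 3xD5711, 3xD5720 and 3xD5734. The groups were apart, the deficient libraries were close to each other, and the log2 difference was -0.37 ± 0.12 (adjusted p = 0.767), -0.55 and -0.30 within the schemes. The serial value of -0.55 rests on treated 1, the lowest colonic library for Acaca, which stood apart by transcript length. Acaca differed by -0.23 ± 0.17 in the duodenum and -0.25 ± 0.20 in the ileum. Its isozyme Acacb, whose malonyl-CoA restrains entry of fatty acids into mitochondria, differed by 0.40 ± 0.35 in the ileum and 0.40 ± 0.32 in the colon, with 1 treated library well above the rest in each region.

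Acly, which makes cytosolic acetyl-CoA from citrate, was at 31.65, 25.6 and 27.1 FPKM in deficient and 25.0, 25.6, 19.7 and 24.2 in treated ileum, in the order above. Treated 3xD5711 (25.58) and deficient 2 (25.60) nearly met, so these groups were apart by a small margin, and the log2 difference was -0.24 ± 0.14 (adjusted p = 0.706). In the colon Acly had means of 66.2 ± 11.2 in treated and 90.97 ± 23.0 in deficient mice (log2 -0.44 ± 0.19, adjusted p = 0.846).

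Fads2, the delta-6 desaturase that starts the making of long polyunsaturated fatty acids, and Elovl6, the elongase of palmitate, had the smallest p of the fatty acid genes in the duodenum. Fads2 was at 16.2, 19.6, 19.5 and 12.0 FPKM in deficient 1, 2, 3 and minusD5718 and at 13.3, 15.51, 6.54 and 10.1 in treated 1, 3xD5711, 3xD5720 and 3xD5734, a log2 difference of -0.57 ± 0.25 (adjusted p = 0.528), and -0.35 without 3xD5720. Elovl6 was at 32.2, 34.3, 37.8 and 44.0 in deficient and 42.3, 29.99, 20.004 and 21.4 in treated libraries in that order, a log2 difference of -0.42 ± 0.23 (adjusted p = 0.557). Both overlapped between groups, and Elovl6 turned in sign between schemes, 0.28 among serial and -0.88 among 4-digit libraries. The stearoyl-CoA desaturases Scd1 and Scd2, which make oleate, had negative pooled differences in all 3 regions, -0.43, -0.38 and -0.45 for Scd1 and -0.33, -0.56 and -0.70 for Scd2 in the order duodenum, ileum and colon, with SE of 0.31 to 0.58. The sign changed with the libraries used. Without 3xD5720 the ileal values were 0.09 for Scd1 and 0.02 for Scd2. Among serial libraries they were 0.09 and 0.56 in the ileum, and Scd2 was at 0.02 in the colon. Duodenal Scd1 was at 0.13 among 4-digit libraries and ran from -0.69 to 0.13 with any 1 library left out.

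**Figure D2:**
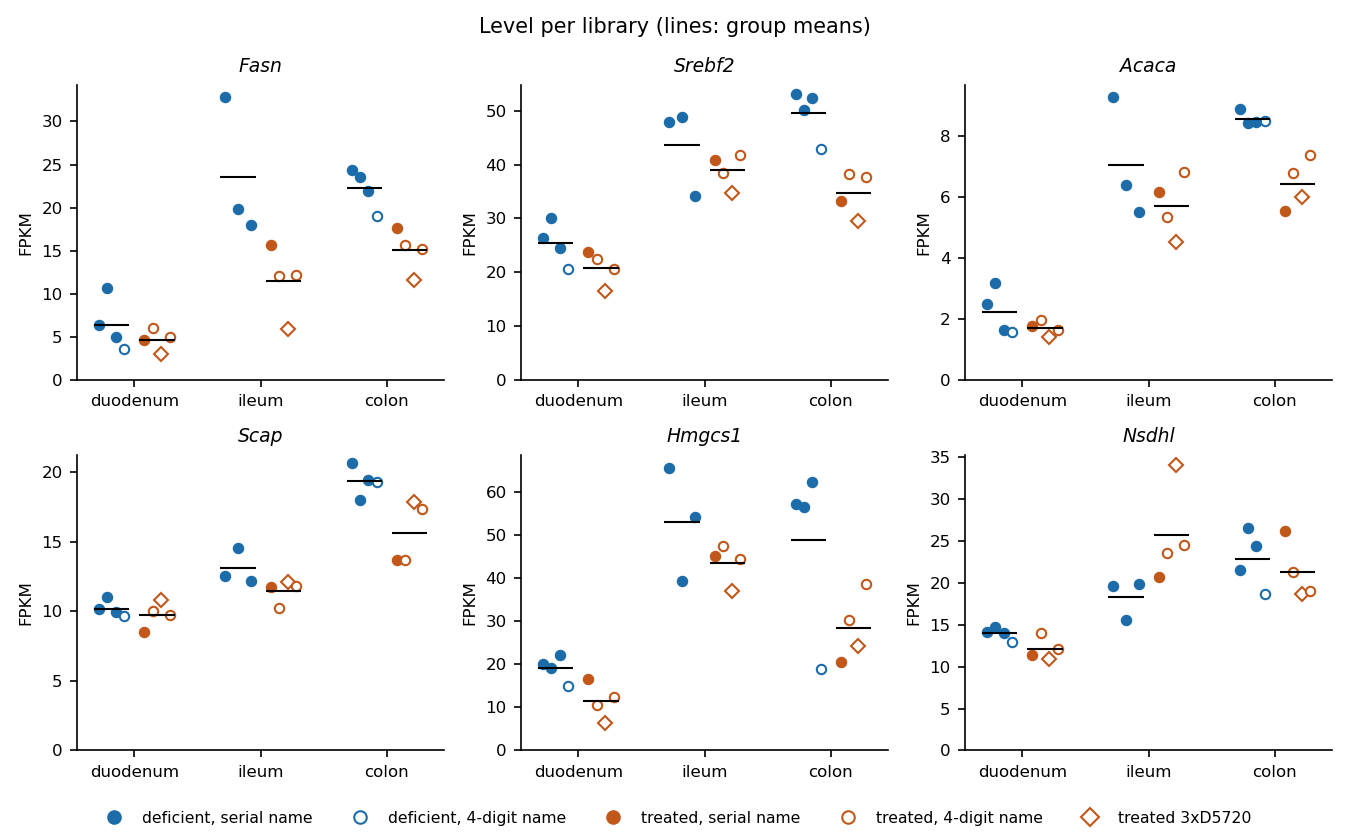
FPKM per library of Fasn, Srebf2, Acaca, Scap, Hmgcs1 and Nsdhl by region, blue for deficient and orange for treated, filled for serial and open for 4-digit names, with a diamond for treated 3xD5720 and lines at group means. In the colon the treated points of Fasn, Srebf2, Acaca and Scap all lie below the deficient ones, and in the ileum those of Nsdhl lie above.

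Sterol regulators had median differences of -0.25 in the duodenum (5 of 6 negative), -0.08 in the ileum (4 of 6) and -0.33 in the colon (5 of 6). Srebf2 encodes SREBP-2, the main driver of cholesterol synthesis genes. In the colon it was at 53.0, 50.05, 52.4 and 42.9 FPKM in deficient 1, 2, 3 and minusD5718 and at 33.25, 38.3, 29.6 and 37.8 in treated 1, 3xD5711, 3xD5720 and 3xD5734. The groups were apart, with a log2 difference of -0.50 ± 0.12 (adjusted p = 0.623), -0.62 and -0.29 within the schemes and between -0.57 and -0.43 with any 1 library left out. The difference was -0.28 ± 0.15 in the duodenum and -0.14 ± 0.16 in the ileum.

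Scap, the escort of both SREBPs, was at 20.6, 18.01, 19.4 and 19.3 FPKM in deficient 1, 2, 3 and minusD5718 colon and at 13.7, 13.7, 17.8 and 17.4 in treated 1, 3xD5711, 3xD5720 and 3xD5734. The groups were only just apart, with deficient 2 at 18.01 and treated 3xD5720 at 17.84, and the log2 difference was -0.30 ± 0.12 (adjusted p = 0.846). In the ileum Scap was at 12.5, 14.55 and 12.2 in deficient and 11.7, 10.2, 12.1 and 11.8 in treated libraries, a difference of -0.18 ± 0.12 (adjusted p = 0.711) between groups that were again only just apart. In the duodenum it was -0.06 ± 0.10.

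Srebf1, whose SREBP-1 products lead the fatty acid branch, varied widely between libraries of a group. In the duodenum it was at 13.9, 14.1, 4.10 and 16.9 FPKM in deficient 1, 2, 3 and minusD5718 and at 3.77, 10.2, 3.42 and 6.07 in treated 1, 3xD5711, 3xD5720 and 3xD5734, a log2 difference of -0.90 ± 0.43 (adjusted p = 0.535). In the ileum the sign was the other way, with 4.53, 10.7 and 2.06 in deficient and 7.17, 5.315, 9.57 and 7.26 in treated libraries, 0.49 ± 0.41 (adjusted p = 0.726). The groups overlapped in both regions, and leaving out single libraries gave ileal values of 0.03 to 0.99.

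Insig2, a brake on SREBP release that is not itself driven by SREBP, was the 1 regulator above 0 in the duodenum. It was at 14.5, 15.3, 14.7 and 19.99 FPKM in deficient 1, 2, 3 and minusD5718 and at 19.6, 17.3, 20.5 and 20.7 in treated 1, 3xD5711, 3xD5720 and 3xD5734. Deficient minusD5718 was among the treated values, and the difference of 0.27 ± 0.12 (adjusted p = 0.528) was 0.38 among serial and -0.04 among 4-digit libraries. Insig1, the brake that SREBP itself induces, differed by -0.56 ± 0.30 in the duodenum (adjusted p = 0.560), -0.11 ± 0.26 in the ileum and -0.36 ± 0.40 in the colon. Its duodenal difference was -0.26 without treated 3xD5720, and in the colon it was 0.26 among serial and 0.28 among 4-digit libraries. The cytosolic sterol carrier Stard4 differed by -0.22 ± 0.13, 0.05 ± 0.17 and -0.08 ± 0.10.

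Sterol synthesis enzymes had median differences of -0.16 in the duodenum (11 of 15 negative), -0.08 in the ileum (9 of 15) and -0.13 in the colon (15 of 16). The duodenal median was -0.04 without treated 3xD5720, -0.26 among serial and 0.16 among 4-digit libraries. Hmgcs1 is the synthase of an early step of the mevalonate pathway. In the duodenum it was at 19.95, 19.15, 22.25 and 15.04 FPKM in deficient 1, 2, 3 and minusD5718 and at 16.5, 10.5, 6.365 and 12.5 in treated 1, 3xD5711, 3xD5720 and 3xD5734. Treated 1 alone lay above deficient minusD5718, and the log2 difference was -0.74 ± 0.25 (adjusted p = 0.499), -0.29 and -0.62 within the schemes and -0.51 without treated 3xD5720. In the colon it was at 57.2, 56.6, 62.3 and 18.8 in deficient and 20.4, 30.3, 24.3 and 38.7 in treated libraries. There minusD5718 was the lowest of all 8, so the pooled difference of -0.66 ± 0.37 (adjusted p = 0.885) was -1.48 among serial and 0.67 among 4-digit libraries.

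Nsdhl, a dehydrogenase of sterol demethylation, had differences of opposite sign in the ileum and duodenum. In the ileum it was at 19.6, 15.6 and 19.9 FPKM in deficient 1, 2 and 3 and at 20.7, 23.5, 34.1 and 24.6 in treated 1, 3xD5711, 3xD5720 and 3xD5734, all above, a log2 difference of 0.45 ± 0.18 (adjusted p = 0.706) that was 0.17 within the serial libraries. In the duodenum it was at 14.2, 14.7, 14.0 and 13.0 in deficient 1, 2, 3 and minusD5718 and at 11.4, 14.0, 10.9 and 12.1 in treated libraries, -0.19 ± 0.10 (adjusted p = 0.557). The test of that difference in response, duodenum minus ileum, gave -0.64 ± 0.21 with an unadjusted p of 0.00607 and an adjusted p of 0.828.

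Pmvk, phosphomevalonate kinase, was at 38.6, 39.9 and 39.03 FPKM in deficient ileum and 33.5, 31.4, 30.2 and 22.2 in treated libraries in the order above. The groups were apart, with a log2 difference of -0.42 ± 0.16 (adjusted p = 0.706). In the duodenum and colon it was 0.07 ± 0.27 and -0.12 ± 0.30. Fdft1, squalene synthase, was tested in the colon alone and rests on 14 to 138 reads per library there. It was at 1.09, 1.30, 1.24 and 0.227 FPKM in deficient 1, 2, 3 and minusD5718 and at 0.393, 0.664, 0.266 and 0.284 in treated libraries, -0.45 ± 0.22 (adjusted p = 0.863), with minusD5718 below every treated library. Dhcr7, which consumes 7-dehydrocholesterol, differed by -0.28 ± 0.15, -0.19 ± 0.21 and -0.07 ± 0.14 in the order duodenum, ileum and colon (adjusted p of 0.566, 0.766 and 0.956).

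The remaining sterol enzymes had no unadjusted p under 0.05 in any region. In the duodenum Acat2, Pmvk, Hsd17b7 and Ebp were at 0.00 to 0.09 and the other 11 sterol enzymes at -0.74 to -0.02. Fdps, the farnesyl diphosphate synthase and the most abundant sterol enzyme in each region, had treated and deficient means of 70.2 ± 13.1 and 78.7 ± 33.6 FPKM (duodenum), 110.2 ± 10.2 and 116 ± 14.1 (ileum), and 104.5 ± 78.4 and 111 ± 39.6 (colon). Its spread in treated colon came from treated 1, at 221 FPKM against 52.2 to 75.9 in the other 3.

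In the colon the sterol enzymes differed in sign between the pooled libraries and the naming schemes. Serial libraries lay all above 4-digit ones for 12 of 32 members in the colon (5.99% of all genes), and 9 of these were sterol enzymes, Acat2, Mvk, Pmvk, Mvd, Fdps, Sqle, Lss, Cyp51 and Nsdhl. The pooled differences of the sterol enzymes were negative in 15 of 16, while within the schemes 10 of the 16 were higher in treated libraries in both, 0 lower in both and 6 of opposite sign, with medians of 0.31 in the serial and 0.28 in the 4-digit libraries. Both schemes rest on 1 library of an arm. That of the serial scheme, treated 1, had the least Cyp24a1 of treated colon (2.67 FPKM). Treated 1 was the highest of the 8 in 9 of the 16 sterol enzymes, and deficient minusD5718 the lowest in 10. No share of all genes is given for these counts or for the counts of signs within the schemes. Without treated 1 the colonic median of the sterol enzymes was -0.40 (16 of 16 negative), and without treated 3xD5720 it was -0.03 (12 of 16). The part of transcript length, depth and sex in these values was not tested.

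Of the colonic fatty acid genes, 6 of 10 were lower in treated libraries in both schemes, 1 was higher in both and 3 were of opposite sign. Regulators had 3 of 6 lower in both (Srebf2 and Scap among them) and 1 higher in both. The serial values of both roles rest on treated 1, the lowest colonic library for Acaca and Scap. The part of transcript length in them was not tested. In the duodenum 9 of 30 genes were lower in both schemes, 1 higher in both and 20 of opposite sign, and serial libraries lay all above for 7 (Hmgcs1, Sqle, Cyp51, Dhcr7, Srebf2, Insig1 and Fads1; 3.09% of all genes) and all below for 0 (4.35%). In the ileum, where the 4-digit libraries are all treated, serial ones lay all above for 4 (Pmvk, Tm7sf2, Fasn and Scd2; 6.96%) and all below for 1 (Nsdhl; 7.84%). In the colon 1, Acacb, lay all below (7.36%).

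**Figure D3:**
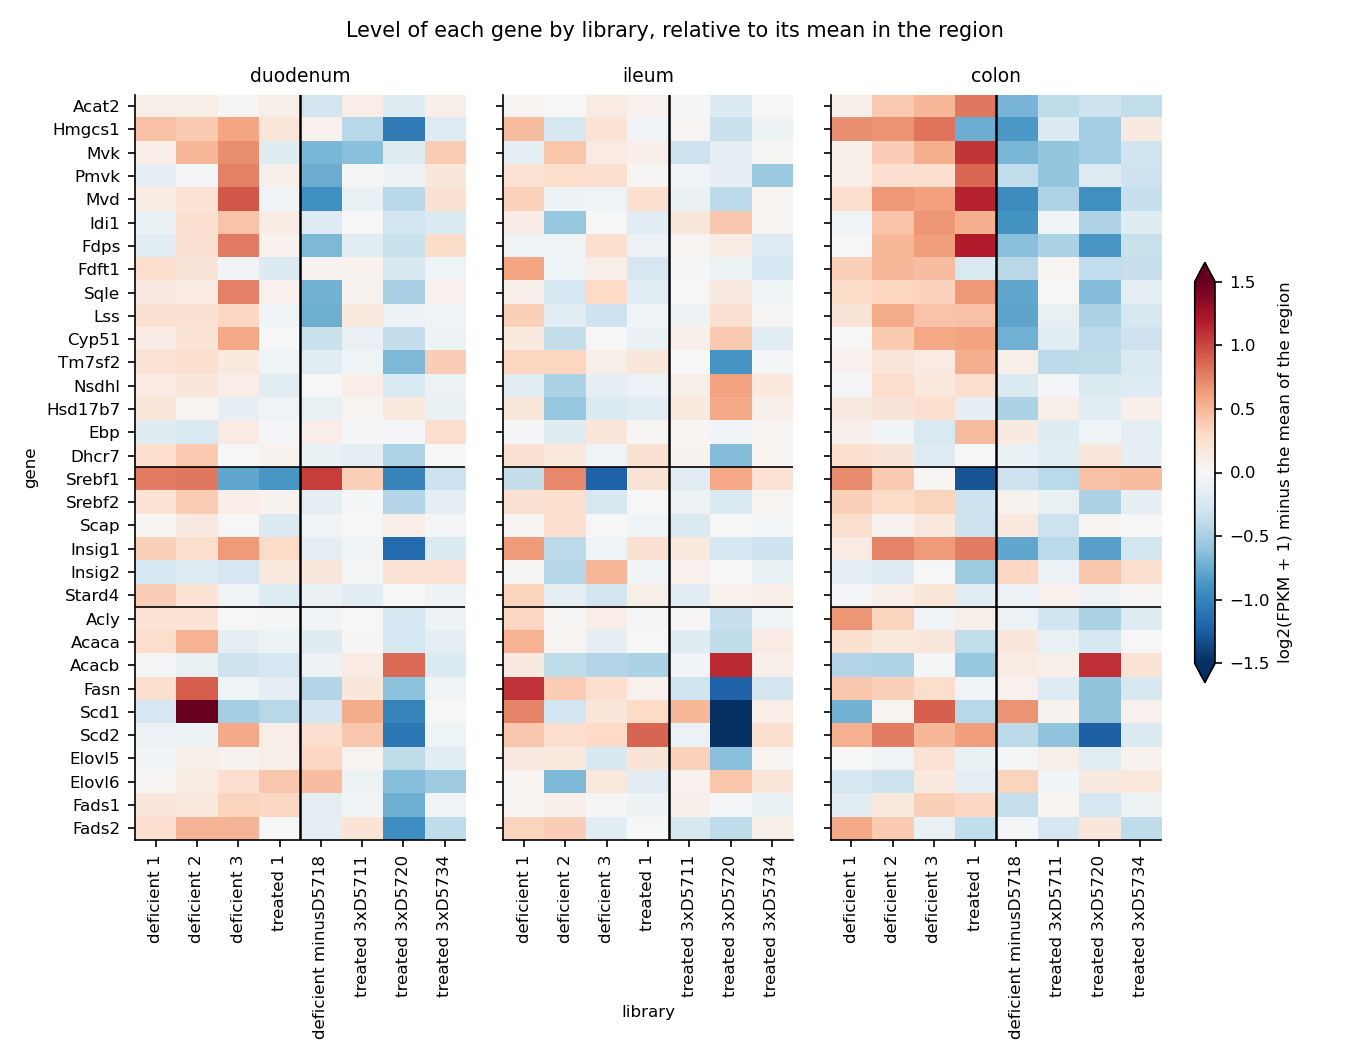
Colour gives each gene's log2(FPKM + 1) in a library minus its mean over the libraries of that region, with genes in rows by role (sterol synthesis, regulators, fatty acid synthesis) and serial libraries left of the black line, 4-digit ones right of it. In the colon most sterol rows are red in the serial libraries, treated 1 included, and blue in the 4-digit ones, and treated 3xD5720 has mostly blue fatty acid rows with a red Acacb in all 3 regions.

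The fatty acid differences were larger with treated 3xD5720 than without it. It was the lowest library of its region for Acly, Fasn, Scd2 and Elovl5 in all 3 regions, and the highest for Acacb in all 3. In the duodenum it was lowest in 9 of 9 fatty acid genes (17.4% of all genes), in the ileum in 7 of 10 (27.1%) and in the colon in 4 of 10 (17.2%). No share of all genes is given for being lowest or highest in it in all 3 regions. Scd2 was at 1.32, 5.35 and 34.4 FPKM in it against 3.64 to 6.33, 22.7 to 45.2 and 53.9 to 141 FPKM in the other libraries of the duodenum, ileum and colon. Acacb was at 2.18, 4.90 and 7.67 against 0.422 to 0.921, 0.961 to 1.97 and 1.73 to 3.67. Without this library the fatty acid median was -0.17 in the duodenum (9 of 9 negative), -0.03 in the ileum (5 of 10) and -0.33 in the colon (7 of 10).

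Genes of fatty acid oxidation were high in the same library. The summed level of 15 such genes was 1814, 1416 and 2357 FPKM in 3xD5720 in the duodenum, ileum and colon, against 810 to 1189, 709.8 to 1073 and 998.9 to 1769 FPKM in the other libraries. Pdk4, the kinase that turns pyruvate away from acetyl-CoA, was at 63.3, 40.2 and 29.6 FPKM in it, against 2.14 to 42.2, 1.17 to 9.34 and 1.97 to 20.2 FPKM elsewhere. Angptl4, an inhibitor of lipoprotein lipase, was at 61.7, 106 and 36.0 FPKM, against 2.94 to 29.2, 14.4 to 39.3 and 3.52 to 12.1 FPKM. The summed epithelial markers were lowest in this library too. Its colonic exocrine pancreas markers summed to 29630 FPKM against 164 to 5781 elsewhere (highest in it for 11 of 11). Its ileal duodenum markers summed to 2184 FPKM against 196 to 774, but only 1 of 5 was highest in it. Its ileal colon markers summed to 492 FPKM against 77.5 to 267, again with only 1 of 6 highest in it. Its Cyp24a1 was at 367, 543 and 369.7 FPKM in the duodenum, ileum and colon. In the other treated libraries Cyp24a1 was at 64.9 to 641, 5.34 to 40.3 and 2.67 to 277 FPKM. The part of tissue make-up or of the hormone response in the values of 3xD5720 was not tested.

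**Figure D4:**
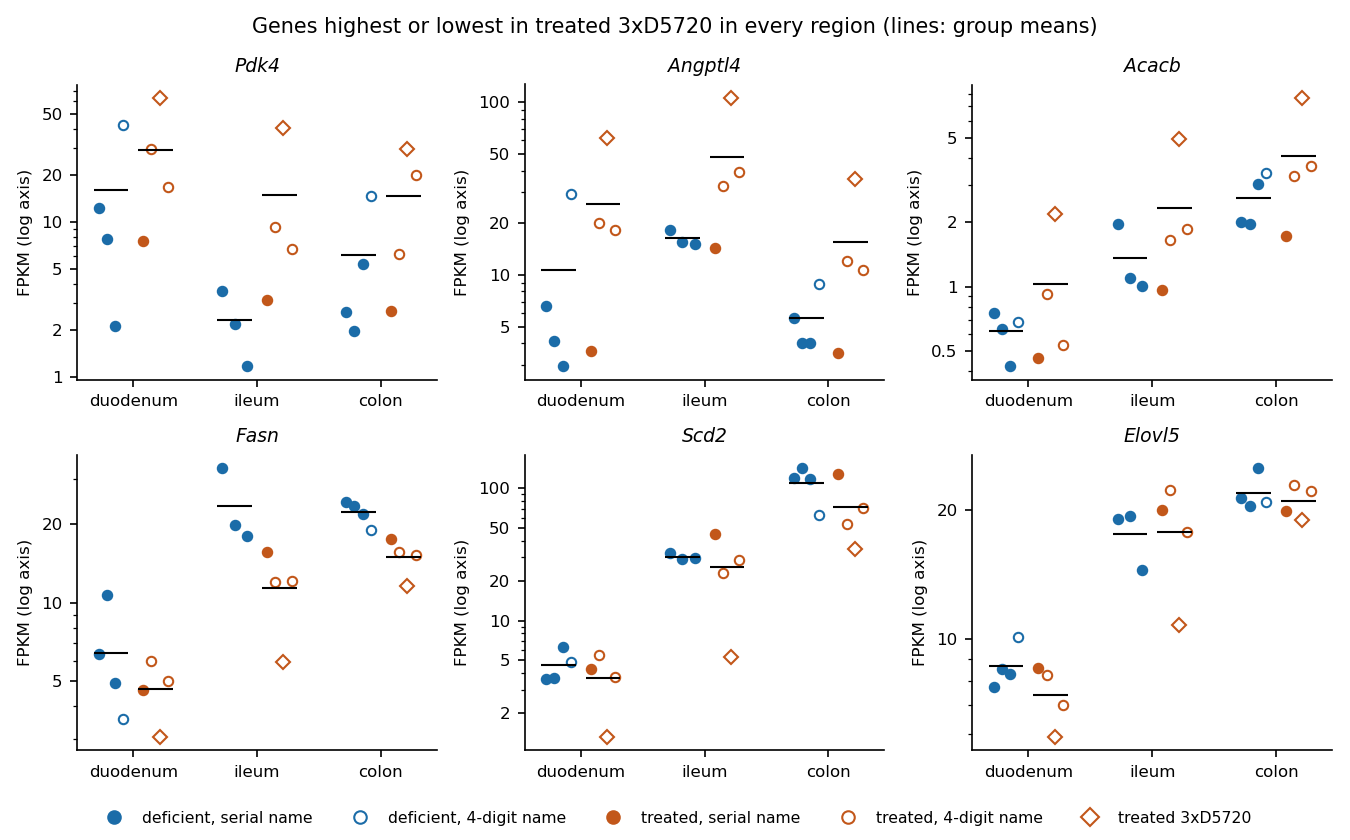
FPKM per library on a log axis of Pdk4, Angptl4, Acacb, Fasn, Scd2 and Elovl5 by region, blue for deficient and orange for treated, filled for serial and open for 4-digit names, with lines at group means. The diamond of treated 3xD5720 is at the top for Pdk4, Angptl4 and Acacb and at the bottom for Fasn, Scd2 and Elovl5 in all 3 regions.

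Responses were compared between regions as a difference of log2 differences in 1 fit over the 23 libraries. By limma 0 of 11433 genes passed for duodenum minus ileum (0.0%), 0 of 11830 for ileum minus colon (0.0%) and 0 of 11365 for duodenum minus colon (0.0%), with 530, 387 and 182 at an unadjusted p under 0.05. Among the members 0 of 30, 0 of 31 and 0 of 30 passed. At an unadjusted p under 0.05 stood 3 for duodenum minus ileum, Nsdhl, Srebf1 (-1.40 ± 0.66) and Elovl6 (-0.71 ± 0.32), each at an adjusted p of 0.828, and 1 for ileum minus colon, Nsdhl (0.54 ± 0.21, adjusted p = 0.960). These comparisons share libraries of the region they have in common.

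Levels of the module were also set side by side between regions. The tables were normalized separately, so these levels are a description with no test. Mean FPKM over all libraries of a region was highest in the colon and lowest in the duodenum for 14 of the 32 genes, and highest in the ileum and lowest in the duodenum for 13. Against the duodenum the ileum had all libraries above for 11 of 30 genes (9.61% of all genes) and all below for 1, Elovl6 (4.68%). The colon had all libraries above the duodenum for 9 of 30 (27.6%) and below for 0 (7.06%), and above the ileum for 3, Acly, Fads2 and Dhcr7 (15.3%), and below for 1, Stard4 (5.23%). Only the share with the ileum above the duodenum clearly exceeded that of all genes, and the other shares were near or under it. Median log2 differences of the module were 0.76 for ileum minus duodenum, 0.73 for colon minus duodenum and 0.08 for colon minus ileum. All genes gave 0.15, 0.37 and 0.25 in that order. Markers of other tissues differed in level between regions too. Exocrine pancreas markers had lowest and highest sums of 1015 and 58113 FPKM (duodenum), 187 and 1348 (ileum), 164 and 29630 (colon). Those of adipocyte markers were 133 and 252, 413 and 730, and 201 and 523 FPKM. The part of tissue make-up in the regional levels of the module was not tested.

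Fatty acid genes differed in level between regions. Acly was at 15.2 ± 1.70 FPKM in the duodenum, 25.6 ± 3.57 in the ileum and 78.6 ± 21.4 in the colon (SD, n = 8, 7 and 8), with no overlap between any regions. Fads2 was at 14.1 ± 4.54, 32.5 ± 6.62 and 71.1 ± 18.2 FPKM, again with no overlap. Elovl6 had its highest mean in the duodenum, 32.75 ± 8.83 against 14.4 ± 3.32 in the ileum and 18.4 ± 3.06 in the colon, where the colon overlapped with both other regions. Acaca and Fasn, the core of palmitate synthesis, were at 1.95 ± 0.59 and 5.53 ± 2.36 FPKM in the duodenum against 7.48 ± 1.27 and 18.6 ± 4.46 in the colon.

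The desaturase isozymes Scd1 and Scd2 both lie on chromosome 19 (NCBIM37 chr19:44468941-44482199 and chr19:44368166-44381354) and had different regional patterns. Scd1 was highest in the ileum, at 84.15 ± 33.1 FPKM against 8.61 ± 8.25 in the duodenum and 23.8 ± 10.3 in the colon. Scd2 was highest in the colon, at 90.7 ± 39.8 FPKM against 4.17 ± 1.505 in the duodenum and 27.6 ± 12.0 in the ileum, 21.7-fold the duodenal mean. The ratio of Scd1 to Scd2 within a library was 0.707 to 7.66 among duodenal, 2.09 to 4.78 among ileal and 0.110 to 0.575 among colonic libraries. Every colonic ratio thus lay below every ratio of the small intestine. Fads1 and Fads2, also on chromosome 19 (chr19:10257378-10271360 and chr19:10138654-10175993), differed likewise, with Fads1 at 10.4 ± 2.39, 7.19 ± 0.39 and 8.28 ± 1.68 FPKM.

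**Figure D5:**
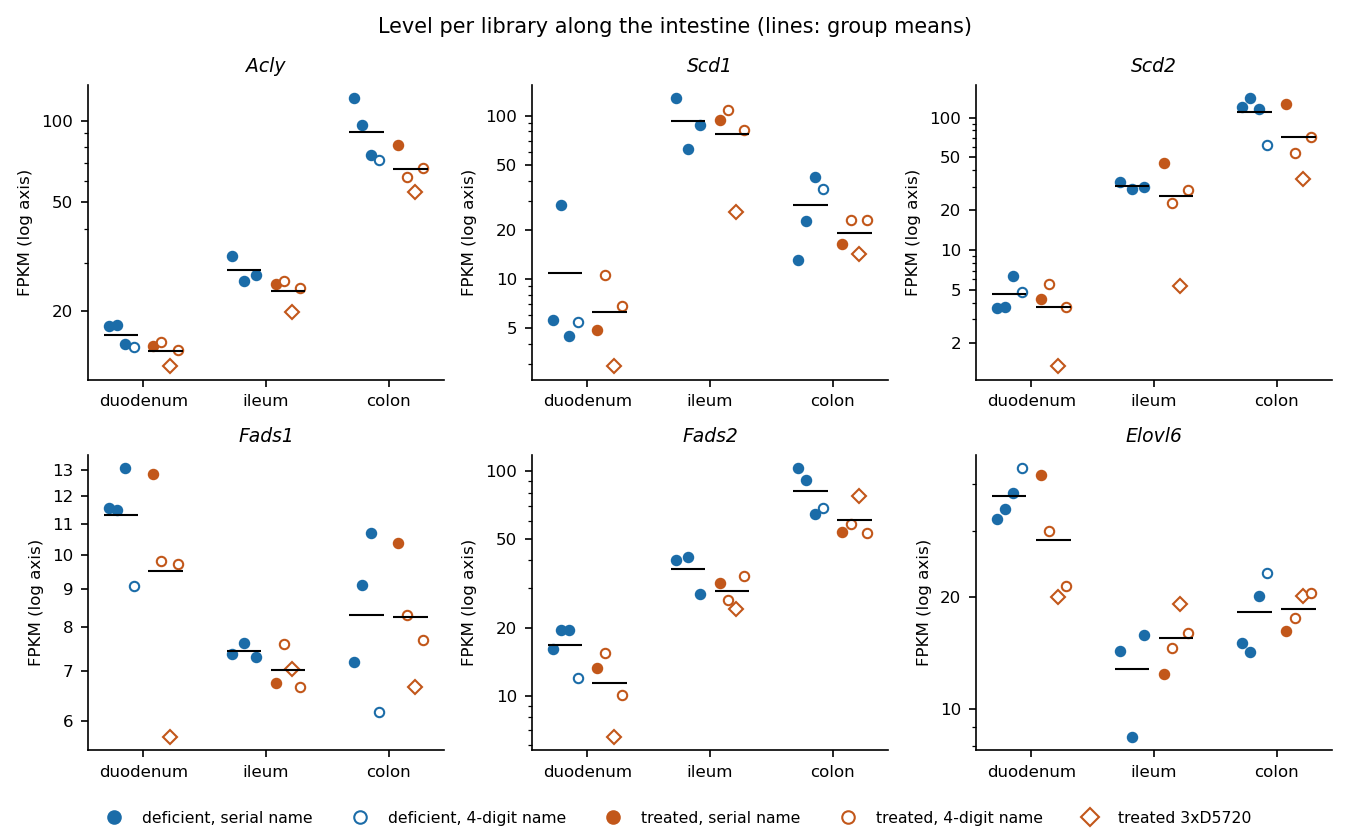
FPKM per library on a log axis of Acly, Scd1, Scd2, Fads1, Fads2 and Elovl6 in the duodenum, ileum and colon, blue for deficient and orange for treated, with lines at group means. Acly, Scd2 and Fads2 climb from duodenum to colon, Scd1 peaks in the ileum and Elovl6 has its highest mean in the duodenum.

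Other genes of the pathways had 0 called in either direction in any region. Of 14 tested cholesterol synthesis and sterol-regulated genes outside the module, 7, 9 and 6 were positive in the duodenum, ileum and colon (medians 0.01, 0.13 and -0.09). Por, which passes electrons to sterol and drug oxidases, was at 145 ± 13.6 FPKM in treated and 101 ± 23.4 in deficient duodenum (0.53 ± 0.17, adjusted p = 0.499). SREBP processing genes (8 tested) had medians of 0.02, 0.02 and -0.03, sterol uptake, efflux and LXR genes (15, 17 and 17 tested) -0.10, -0.04 and -0.01, and other lipogenic genes (19, 20 and 19 tested) 0.00, -0.03 and -0.04. Among them Stard5, a sterol carrier, was at 35.3 ± 15.9 FPKM in treated and 11.75 ± 2.31 in deficient duodenum, groups that did not overlap (1.43 ± 0.28, adjusted p = 0.479).

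Fatty acid oxidation genes were positive in 14 of 15, 13 of 14 and 14 of 14 (medians 0.43, 0.46 and 0.29), with 0 called. Acaa2, a thiolase of that pathway, was at 152 ± 18.9 FPKM in treated and 109.5 ± 15.04 in deficient colon (0.48 ± 0.13, adjusted p = 0.725). The list's sum followed the naming scheme, at 810 to 1087 in serial against 1170 to 1814 in 4-digit duodenum, 709.8 to 853.9 against 993.6 to 1416 in the ileum, and 998.9 to 1200 against 1552 to 2357 in the colon.

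Markers of other cell types and regions also moved with library names or treatment, with 0 called. Stomach markers summed to 40.5 to 215 FPKM in serial and 6251 to 12369 in 4-digit duodenum. T, NK and B cell markers had medians of -0.85, -0.51 and -0.30 in the duodenum, ileum and colon, and exocrine pancreas markers of -0.67, -1.59 and -0.99, although the highest colonic sum of the pancreas markers was in treated 3xD5720. Adipocyte markers, cells that make fat themselves, had medians of 0.32, 0.14 and 0.49 and summed to 395 to 523 FPKM in treated and 201 to 386 in deficient colon. Smooth muscle markers had medians of 0.19, -0.03 and -0.02, epithelial markers of -0.04, -0.21 and -0.06, and proliferation markers of 0.08, 0.17 and -0.14. Their part in the values of the 32 genes was not tested.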

How the data were processed

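Poly(A) RNA libraries were made with NEBNext Ultra II, per the labels' protocols, which also name CLC Genomics Workbench. The submitters' processing notes list kallisto 0.45.0, DESeq 1.14.0, DESeq2 and mm9 without roles. The values used are FPKM per gene symbol as deposited by the authors, in a table per region normalized separately. Columns were tied to groups by name, and 3 deficient columns per table are named Vehicle. The 8-library ileum table equals the duodenum's in 171528 of 171528 values, so its 8 columns were not used and the ileum rests on 7 libraries. Of the 24 samples, 23 were used.

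Differences were fitted per region with limma 3.58.1 (R 4.3.3; lmFit and eBayes with trend) on log2(FPKM + 1), for genes that reached 1 FPKM in 3 or more libraries, with Benjamini-Hochberg adjustment at 0.05. This scale understates the change of low genes. Differences in response were contrasts in 1 fit of all groups over 23 libraries. Whole reads, recovered from FPKM steps with a tolerance of 0.0001, were found for 80.1%, 80.2% and 80.1% of tested genes in the duodenum, ileum and colon and used with voom as an alternative. The fit was tested on simulated data.

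Members, gene lists and tests were chosen with earlier results of these data known. Values in every library are given for members whose groups do not overlap and for the 2 members of each role with the smallest p in a region. Other genes are named where they have the smallest p of their list, and Pdk4 and Angptl4 were named after their values were seen. Some items are not reported here. Other settings were pseudocounts, filters, rescalings, weights, the naming scheme as a covariate and leaving out each library. Same-named libraries of 2 regions deviated together in 7 of 7 pairs for duodenum and ileum (correlation over 0.1), 7 of 8 for duodenum and colon and 6 of 7 for ileum and colon; the names are those of the columns. Gene positions are of NCBIM37, and promoters come from RefSeq on GRCm38.p6. Python 3.11.15, pandas 2.3.3 and matplotlib 3.10.9 were used.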

Additional observations from a re-analysis of the deposited data

Results flagged for a closer look

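Among 155 groups of 4 libraries, 16 held a library whose gap to the nearest other exceeded Dixon's 95% critical value for its share of the group's range, where chance gives about 1 in 20, or 7.75. The groups are genes measured in the same libraries and are not independent, so these counts cannot show an excess over chance. In deficient colon minusD5718 was far below the other 3 for Hmgcs1 (18.8 FPKM against 56.6 to 62.3), Sqle (28.4 against 60.1 to 63.0), Hsd17b7 (5.48 against 8.85 to 9.71) and Fdft1 (0.227 against 1.09 to 1.30), all sterol enzymes. In treated colon the library treated 1 was far above for Acat2 (43.9 FPKM against 18.9 to 19.8) and Mvk (34.5 against 10.3 to 12.7). Acaca in deficient colon was at 8.88 FPKM in deficient 1 against 8.40 to 8.46.

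In treated duodenum 3xD5720 was low for Acat2 (19.5 FPKM against 23.6 to 24.0) and Sqle (14.0 against 20.8 to 21.0), and 3xD5734 high for Ebp (51.3 against 41.6 to 42.1). In deficient duodenum minusD5718 was low for Lss (2.10 FPKM against 5.03 to 5.37) and high for Insig2 (19.99 against 14.5 to 15.3), deficient 3 was low for Srebf1 (4.10 against 13.9 to 16.9), and deficient 2 was high for Scd1 (28.3 against 4.48 to 5.57). In treated ileum 3xD5711 was low for Scap (10.2 FPKM against 11.7 to 12.1) and Stard4 (75.5 against 87.8 to 89.6).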

How the results depend on the processing

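The count of called members was 0 in each region under every alternative run that has a test. Genes called in the duodenum numbered 3, against 1 with a pseudocount of 0.1, a filter on the mean, a filter at 5 FPKM or the naming scheme as a covariate, 0 with voom, and 1 to 4 with single libraries left out (1 without 3xD5711, 3xD5720, 3xD5734 or deficient 2). In the ileum 1 was called with no filter. In the colon 2 were called with the scheme as a covariate, 8 with array weights, and 0 to 3 with single libraries left out (1 without treated 1, 3 without deficient 3).

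With the 4-digit libraries only, the duodenal median was 0.024 over all members, 0.16 over sterol enzymes and -0.053 over regulators, and the colonic one 0.063 over all members, -0.021 over regulators and -0.24 over fatty acid genes. Colonic fatty acid genes had -0.25 with serial libraries only, -0.18 with the scheme as a covariate and -0.17 with array weights. Duodenal regulators had -0.42 with voom, where Scap and Insig2 have no recovered reads. With single libraries left out, ileal regulators ran from -0.12 to 0.063 (0.063 without deficient 1), ileal fatty acid genes from -0.33 to -0.026 (-0.026 without 3xD5720), colonic regulators from -0.44 to -0.14 (-0.14 without treated 1) and colonic fatty acid genes from -0.40 to -0.29. Single members changed sign in 36 of 62 values with the 4-digit libraries only, 31 of 93 with serial ones only, 29 of 93 with the scheme as a covariate and 56 of 710 with a library left out. Apart from these constructions, the cause was not tested.

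Genes with a different response, 0 in each pair, numbered 1 for duodenum minus ileum with the replicate block (library name, consensus correlation 0.39), a pseudocount of 0.1 or the 2 regions alone, and 0 to 1 with single libraries left out (1 without 3xD5734). For ileum minus colon 1 was called with the scheme by region as covariates, and 0 to 1 with single libraries left out (1 without 3xD5734), and for duodenum minus colon 1 with a pseudocount of 0.1. The block called 0 members. No paired analysis was possible because the columns of treated and deficient libraries carry no numbers that tie them to the labels' replicates. Depth limits Fdft1 most, at 14 to 138 reads per colonic library.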
